A study of Helianthus annuus with 6 samples.

Results

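Of the 21326 probes tested on a sunflower (Helianthus annuus) oligonucleotide array of 40243 probes, 79 read at least 2-fold higher in leaf discs expressing HaWRKY10 than in control discs, with every HaWRKY10 array above every control array. They were chosen by the measured signals themselves: among the probes well above background on at least 3 of the 6 arrays, a member had a mean at least 1 log2 unit higher on the 3 HaWRKY10 arrays than on the 3 control arrays, and its lowest HaWRKY10 value lay above its highest control value. These members are 0.37% of the tested probes. That difference and that lack of overlap are therefore the rule and not a finding, and the values below are given as a description, with no test of the members.

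Both groups were discs from leaves of V3 stage plants that transiently carried a construct in the pBI121 vector. In the 3 control samples (pBI121) the 35S promoter, a constitutive promoter of cauliflower mosaic virus, drove GUS, a bacterial reporter enzyme, and in the 3 HaWRKY10 samples it drove HaWRKY10. The plants had grown for 2 to 3 weeks in long days (16 h light, 8 h dark) at 25 °C, and RNA from each sample went onto 1 single-colour (Cy3) array. Every sample thus carried a 35S construct, and there were no untransformed discs among the arrays used here. In transient expression only part of the cells of a disc take up a construct, so a probe's signal averages cells with and without it, and more cells with a transcript cannot be told apart from more transcript per cell. The series' design text names another factor, HaHB11, in place of HaWRKY10; titles and construct labels of the samples name HaWRKY10 and were followed.

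WRKY proteins are a family of plant transcription factors named for the conserved amino acids of their DNA-binding domain. They bind W-box elements in promoters and are known mostly from responses to pathogens, wounding, senescence and abiotic stress, and some act in seeds. The title of the study links HaWRKY10 to the mobilisation of seed-stored reserves during germination. A transcript that rises when such a factor is expressed may be a direct target or may lie further downstream, and an expression array does not separate these cases. None of the 79 member names, and none of the 40243 probe names, was found in the sunflower gene table used here, so members are given by probe, with no gene name or role, and neither the expressed factor nor leaf marker genes could be looked up.

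Levels are given in log2 units, with the 75th percentile of the probes on the same array set to 0, which corresponded to 201 to 302 units of processed signal. A step of 1 unit is a factor of 2. The scanner software flagged 21021 to 21760 probes per array as well above background, no member spot was saturated, and the median local background at the member spots was 23.5 to 28 units, against 24 to 28.5 over all tested probes. Signals of different probes also depend on the probe, so levels are compared between arrays and not between transcripts.

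**Figure D1:**
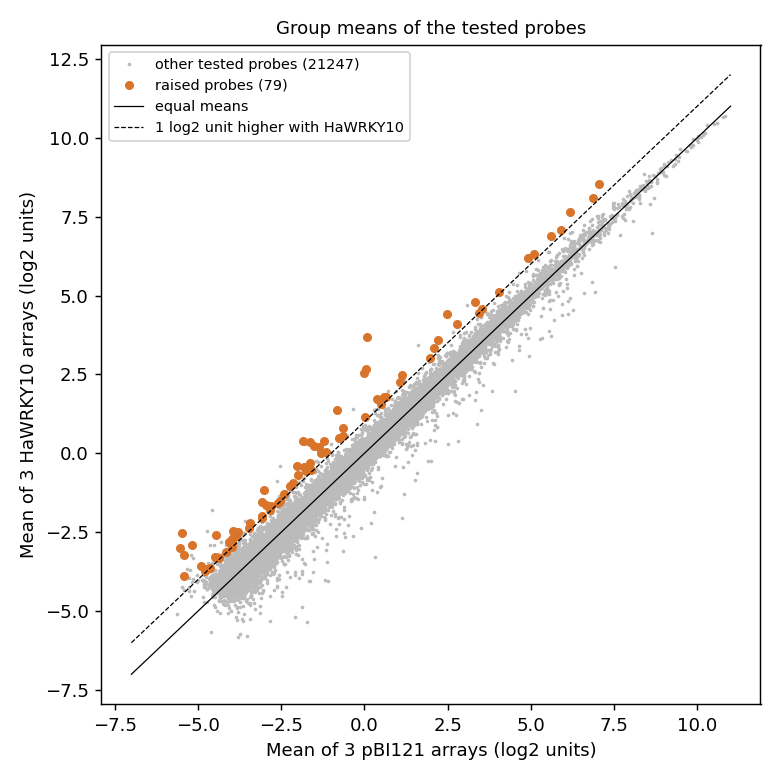
Mean of the 3 HaWRKY10 arrays against the mean of the 3 pBI121 arrays for the 21326 tested probes, both axes as log2 level (0 is the array's 75th percentile). Orange points are the 79 members and grey points the other tested probes. By the rule all members lie on or above the dashed line, 1 log2 unit higher with HaWRKY10, and they are spread from the dimmest to among the brightest probes.

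The members ranged from close to background to very bright. The mean level over the 6 arrays was 0 or above for 28 members (35.4%), between -2 and 0 for 19 (24.1%) and below -2 for 32 (40.5%). Over all tested probes these shares were 47%, 26.2% and 26.8%. The median level was -1.10 for the members, against -0.21 for all tested probes and -1.22 for the 171 probes that the mirrored rule finds lowered with HaWRKY10. These shares describe how far spots lay above background and not the abundance of transcripts. The pooled SD within groups had a median of 0.511 log2 units for the members, 0.498 for the lowered probes and 0.192 for all tested probes.

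Most differences were close to the threshold. The difference of means was under 1.5 log2 units for 60 members, 1.5 to 2 for 10, and 2 or more for 9, with a median of 1.25. Of these 9, CUST_719_PI423492394 and CUST_762_PI423492394 were not well above background on any control array, so their differences are not measured sizes. CUST_34790_PI423492394 and CUST_3507_PI423492394 were so on only 1 control array, so their differences are not fully measured either. The gap between the lowest HaWRKY10 and the highest control value ranged from 0.005 to 2.08 log2 units, with a median of 0.433. It was at least 1 for 6 members and under 0.1 for 9. The scanner software gives an error for each spot, and combined over both spots that bound the gap this error was 0.2 to 0.66 log2 units. The gap was larger than this error for 52 of the 79 members and more than 2 times as large for 34. For the other 27 members the separation of the groups was no wider than this combined error.

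Just inside the threshold of 1 lay CUST_3757_PI423492394, CUST_4637_PI423492394 and CUST_6213_PI423492394, with differences of 1.004, 1.018 and 1.027. The non-overlapping probes just below it were CUST_1448_PI423492394, CUST_2646_PI423492394 and CUST_29751_PI423492394, at 0.9983, 0.9871 and 0.9868. CUST_1448_PI423492394 measured -2.07, -2.09 and -2.02 on control arrays 1 to 3, against -1.32, -0.96 and -0.91 with HaWRKY10, a gap of 0.698 that lies above the members' median gap. A further 3 probes missed the rule by a slight overlap: CUST_6700_PI423492394, CUST_21870_PI423492394 and CUST_28311_PI423492394 had differences of 1.28, 1.74 and 1.12, but their lowest HaWRKY10 value lay 0.004 to 0.061 below their highest control value. Members and these neighbours thus form a continuous run of values across the threshold.

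CUST_9442_PI423492394 had the largest difference. Its processed signal was 289, 88 and 579 units on control arrays 1 to 3, against 3120, 3339 and 3373 units with HaWRKY10. As levels these were -0.06, -1.22 and 1.53 against 3.61, 3.83 and 3.67, or 0.08 ± 1.38 and 3.70 ± 0.11 (SD, n = 3 each), a difference of 3.62 and a ratio of 12.3. The HaWRKY10 arrays lay close together while the control arrays were widely spread, with replicate 3 highest and replicate 2 lowest, and the groups stayed 2.08 apart.

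A pair of probes followed each other closely. CUST_32506_PI423492394 measured -0.50, -0.39 and 1.04 on control arrays 1 to 3, against 2.86, 2.62 and 2.57 with HaWRKY10, a difference of 2.63. CUST_6969_PI423492394 measured -0.64, -0.37 and 1.03 on the control arrays and 2.58, 2.55 and 2.53 on the HaWRKY10 arrays, a difference of 2.55. In both, control replicate 3 was the high control, and all HaWRKY10 arrays stood at least 1.5 above it. After centring each probe on its own mean, the root mean square distance between this pair over the 6 arrays was 0.0979 log2 units, and CUST_6969_PI423492394 was the nearest of all tested probes to CUST_32506_PI423492394. The median distance over the 3081 pairs of members was 0.601. Such closeness was not particular to this pair. CUST_11457_PI423492394 lay 0.0891 from CUST_41010_PI423492394, and 0.139 from CUST_14052_PI423492394 although those levels differed by up to 8.96 log2 units. The distance also includes the group difference on which members were chosen. Whether the pair reads 1 transcript or several is not known from the files.

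The other members with large differences were mostly dimmer. CUST_897_PI423492394 measured -2.43, -2.63 and -0.47 on control arrays 1 to 3, against 0.84, -0.08 and 0.44 with HaWRKY10, a ratio of 4.73. CUST_32348_PI423492394 measured -2.02, -2.03 and -0.83 against 0.40, 0.50 and 0.17, a ratio of 3.95. Both repeat the order seen above, with control replicate 3 highest among the controls. CUST_30490_PI423492394 differed from them: it measured -1.22, 0.10 and -1.37 on the control arrays and 1.5, 0.42 and 2.19 on the HaWRKY10 arrays, so that its difference was 0.32 within slide 2 and 3.55 within slide 3. CUST_1698_PI423492394, further down the order, measured -1.51, -1.87 and -1.13 against 0.39, -0.16 and 0.46, a ratio of 3.33 with a gap of 0.966.

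**Figure D2:**
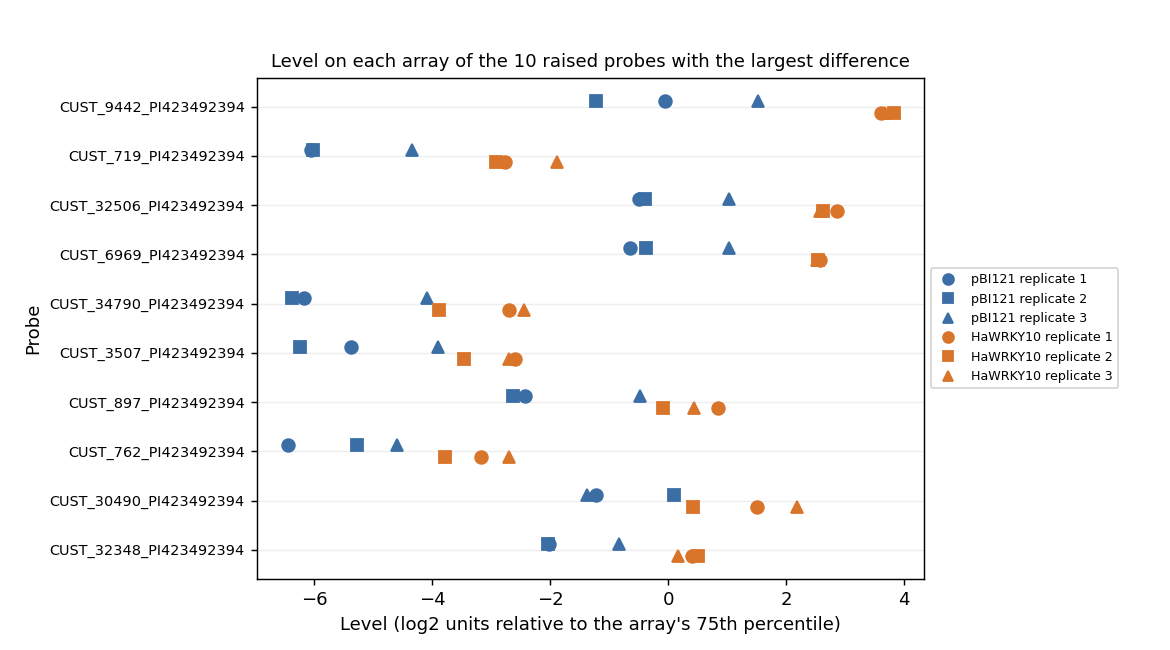
Log2 level on each array (0 is the array's 75th percentile) of the 10 members with the largest difference of means. Blue symbols are the 3 pBI121 arrays and orange symbols the 3 HaWRKY10 arrays, with 1 symbol shape per replicate. In 9 of the 10 probes the blue triangle, control replicate 3, is the control array nearest to the HaWRKY10 arrays. CUST_719_PI423492394 and CUST_762_PI423492394 were not well above background on any control array, and CUST_34790_PI423492394 and CUST_3507_PI423492394 on only 1. The order of their blue symbols is therefore not fully measured.

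The likeness among the strongest members was measured over the 6 arrays on centred values. The 2 nearest tested probes to CUST_9442_PI423492394 were CUST_719_PI423492394 and CUST_32506_PI423492394, the latter at a distance of 0.671 log2 units. The second nearest to CUST_32506_PI423492394 was CUST_897_PI423492394 at 0.356. No distance is given for CUST_719_PI423492394, whose control values were not above background, so its place as 1 of the 2 nearest is not measured either. All of these are members, but the distance includes the group difference on which members were chosen.

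Among the 10 members of highest level the differences ran from 1.04 to 1.49 log2 units. CUST_11457_PI423492394 measured 6.62, 6.67 and 7.87 on control arrays 1 to 3, against 8.43, 8.59 and 8.60 with HaWRKY10, a ratio of 2.81. Its processed signal rose from 20824 to 46897 units on the control arrays to 87923 to 103086 units on the HaWRKY10 arrays. CUST_41010_PI423492394 measured 5.74, 5.71 and 7.09 against 7.64, 7.55 and 7.72, a ratio of 2.74. Its centred profile lay 0.0891 log2 units from that of CUST_11457_PI423492394, and in both probes control replicate 3 was more than 0.5 of the way from the other controls to HaWRKY10. CUST_11163_PI423492394 measured 6.91, 6.63 and 7.05 against 8.47, 8.31 and 7.48, a ratio of 2.33, and here HaWRKY10 replicate 3 was the low array of its group. CUST_11163_PI423492394 and CUST_11457_PI423492394 were the only members among the 200 tested probes with the highest mean level.

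Several bright members showed no such intermediate control. CUST_26993_PI423492394 measured 5.55, 5.46 and 5.83 on control arrays 1 to 3, against 7.09, 6.78 and 6.76 with HaWRKY10, a ratio of 2.40. CUST_26946_PI423492394 measured 4.87, 5.13 and 4.73 against 6.55, 6.07 and 5.97, and CUST_26622_PI423492394 measured 5.11, 5.15 and 5.0 against 6.57, 6.12 and 6.30, ratios of 2.44 and 2.36. In these probes all control arrays lay within 0.4 log2 units of each other, and the HaWRKY10 arrays stood 0.839 to 0.968 above the highest of them. CUST_10277_PI423492394 (ratio 2.75), CUST_8301_PI423492394 (2.10) and CUST_10047_PI423492394 (2.05) complete the 10 members of highest level, together with CUST_6910_PI423492394. In CUST_10277_PI423492394 and CUST_10047_PI423492394 control replicate 3 was again intermediate, 0.58 and 0.72 of the way from the other controls to HaWRKY10. For CUST_10047_PI423492394 the HaWRKY10 minimum of 4.30 lay only 0.096 above control replicate 3 at 4.20.

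The members with the smallest spread within groups had modest differences. CUST_6910_PI423492394 measured 5.90, 6.04 and 5.81 on control arrays 1 to 3, against 7.19, 7.05 and 6.95 with HaWRKY10, or 5.92 ± 0.11 and 7.07 ± 0.12 (SD, n = 3 each). CUST_7245_PI423492394 measured 1.29, 0.97 and 1.09 against 2.61, 2.46 and 2.41, with differences of 1.32, 1.49 and 1.32 within slides 1, 2 and 3. CUST_32515_PI423492394 measured 0.73, 0.48 and 0.59 against 1.93, 1.84 and 1.63. These 3 are well above background on every array, and the gap exceeded its spot error 4.42 to 5.51 times. CUST_8316_PI423492394 and CUST_2871_PI423492394 were as tight at lower levels: the first measured -2.62, -2.82 and -3.04 against -1.78, -1.87 and -1.69, and the second -3.33, -2.90 and -3.00 against -1.99, -2.08 and -2.05.

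All 79 members were well above background on all 3 HaWRKY10 arrays, as were 20400 of the 21326 tested probes. Only 57 members (72.2%) were so on all 3 control arrays, against 93.8% of tested probes. Of the other 22 members, 5 (6.33% of the members) were well above background on 2 control arrays, 8 (10.1%) on 1 and 9 (11.4%) on none. Over all tested probes these shares were 4.1%, 1.89% and 0.225%. A probe entered the test with this flag on at least 3 arrays. The 9 members flagged on no control array thus entered through the HaWRKY10 arrays alone and had to differ in this flag. The same holds for all 48 tested probes flagged on no control array. The mirrored rule gave 126 of 171 lowered probes well above background on all HaWRKY10 arrays.

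For the 9 members not well above background on any control array the size of the difference is not measured, and only a floored ratio is given. It was taken between the mean of the HaWRKY10 arrays and, in the control, the lowest level flagged as well above background on each array, or the probe's level where that was higher. These lowest levels lay between -4.31 and -4.13. Spots without the flag could lie above them, such as CUST_4050_PI423492394 at -3.84 on control array 3. The floored ratio is therefore no strict lower limit. CUST_719_PI423492394 measured -2.76, -2.91 and -1.89 on HaWRKY10 arrays 1 to 3, from 31.2 to 71.6 units, and had a floored ratio of 3.20. For CUST_233_PI423492394 the floored ratio was 2.41, which equals its ratio of means because its own control levels were at or above those lowest levels. These control levels were not well above background, so the value is no lower limit. Its differences within slides 1 to 3 were 2.33, 0.64 and 0.83 log2 units. The floored ratio was 1.97 for CUST_762_PI423492394. For CUST_4050_PI423492394 the same step gave 1.91-fold. There it used the probe's own levels on control arrays 1 and 3, -4.20 and -3.84, which were not well above background. The floored ratios of CUST_17025_PI423492394, CUST_8772_PI423492394, CUST_20910_PI423492394, CUST_34194_PI423492394 and CUST_7906_PI423492394 were lower, at 1.54, 1.49, 1.46, 1.39 and 1.24. Ratios of means above these floored ratios, such as 7.74 for CUST_719_PI423492394, rest on control signals of a few units and are not measured sizes.

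The 13 members measured on only some control arrays were nearly as dim, and their differences rest partly on control values not well above background. CUST_34790_PI423492394 measured -6.17, -6.37 and -4.09 on control arrays 1 to 3, against -2.69, -3.88 and -2.44 with HaWRKY10. CUST_3507_PI423492394 measured -5.38, -6.25 and -3.91 against -2.60, -3.46 and -2.70. In both only 1 control array was well above background, and the gap of 0.215 for CUST_34790_PI423492394 was smaller than its spot error of 0.42. CUST_9613_PI423492394, CUST_21141_PI423492394, CUST_31769_PI423492394, CUST_33791_PI423492394, CUST_34914_PI423492394 and CUST_3757_PI423492394 were also well above background on 1 control array. Their gaps were 0.044 to 0.562. CUST_2021_PI423492394, CUST_3912_PI423492394, CUST_9837_PI423492394, CUST_12595_PI423492394 and CUST_32769_PI423492394 were so on 2 control arrays, and among them CUST_3912_PI423492394 had the widest gap, at -3.30, -3.79 and -3.24 against -2.26, -2.26 and -2.13.

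A different treatment of the signal gave smaller differences for the dim members. It took median spot signals in place of the processed signal, corrected them by normexp and added an offset of 50, and the parts of these steps were not separated. After it, all 79 members still had a higher mean with HaWRKY10, with no overlap for 58, but only 27 still met the rule. The difference stayed at 1 or more for 23 of the 28 members with a mean level of 0 or above, for 5 of the 19 between -2 and 0, and for 0 of the 32 below -2. The median differences were 1.21, 0.83 and 0.40 in these classes, against 1.28, 1.29 and 1.22 from the processed signal. The class below -2 holds the 9 members not well above background on any control array, for which neither value is a measured size. Among members measured on every array, CUST_897_PI423492394 went from 2.24 to 1.39 and CUST_32348_PI423492394 from 1.98 to 1.39, whereas CUST_9442_PI423492394 went from 3.62 to 3.31 and CUST_11457_PI423492394 from 1.49 to 1.5. A constant added to every signal lowers the ratios of dim probes by construction. In the authors' deposited table of log2 values the members' median difference was 1.22, and 73 met the rule. There the members that fell below 1 were bright, all with a mean level above 0. They were CUST_4637_PI423492394 (0.89), CUST_6910_PI423492394 (0.90), CUST_10047_PI423492394 (0.93), CUST_8301_PI423492394 (0.94), CUST_10598_PI423492394 (0.97) and CUST_11163_PI423492394 (0.97).

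**Figure D3:**
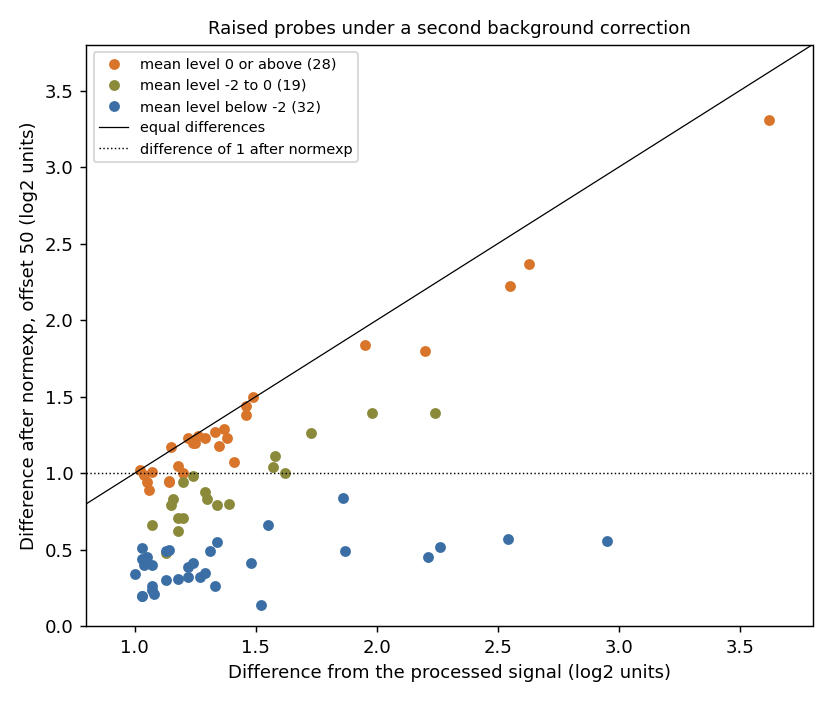
Difference of group means (HaWRKY10 minus pBI121, log2 units) of each of the 79 members after normexp correction with an offset of 50, against the difference from the processed signal. Colours give the mean level. Members with a level of 0 or above lie near the line of equal differences, while all 32 members with a level below -2 lie under a difference of 1 after normexp.

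Control replicate 3 was the control array nearest to HaWRKY10 for 41 members (51.9%), control replicate 2 for 26 (32.9%) and control replicate 1 for 12 (15.2%). Over all tested probes control replicate 3 was the highest control for 41.9%, and replicates 2 and 1 for 30% and 28.1%. On a scale with 0 at the mean of control replicates 1 and 2 and 1 at the mean of the HaWRKY10 arrays, its median position was 0.22 over the members. The position was above 0.5 for 24 members, between 0.25 and 0.5 for 14, and below 0.25 for 41, of which 28 lay below 0. The median difference was 1.44, 1.57 and 1.18 in these classes. The members thus fell into some in which control replicate 3 was intermediate, among them most of the largest, and as many in which it resembled the other controls or lay lower still. These counts include the 22 members not well above background on all control arrays, for which the order of the controls is not fully measured. Why this array differed was not tested.

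**Figure D4:**
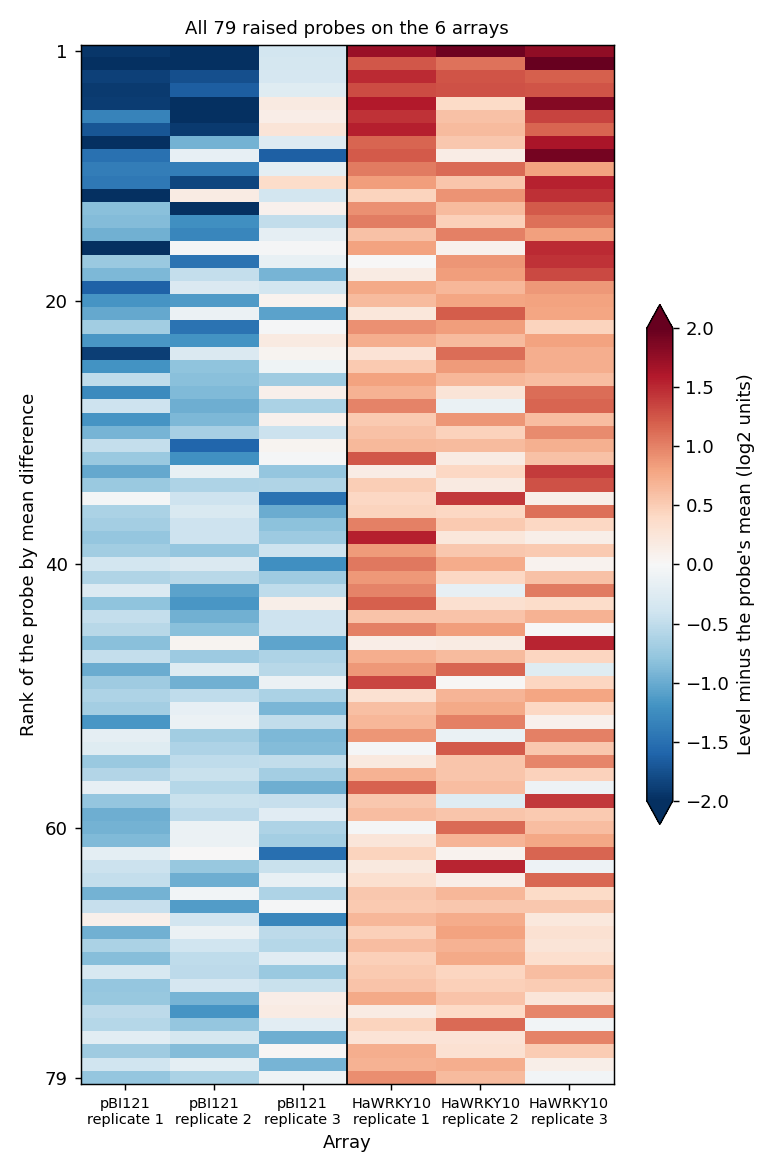
Level of each of the 79 members (rows, ordered by mean difference) on the 6 arrays, minus the probe's own mean, in log2 units; colours saturate at 2 units either way. The control arrays are left of the line and the HaWRKY10 arrays right of it. In many of the upper rows control replicate 3 is paler than replicates 1 and 2.

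Among the HaWRKY10 arrays, replicate 3 was the highest for 35 members, replicate 1 for 23 and replicate 2 for 21, while replicate 2 was the lowest for 31. These are 44.3%, 29.1%, 26.6% and 39.2% of the members, against 34.6%, 30.0%, 35.3% and 34.9% of all tested probes. Arrays with the same replicate number shared a slide, and the difference within slides was positive for all members, as the rule requires. Its median was 1.43 on slide 1, 1.27 on slide 2 and 1.21 on slide 3, and it reached 1 for 64, 54 and 49 of the 79 members. Single slides carried some members: CUST_12595_PI423492394 differed by 0.64, 0.07 and 2.67 on slides 1 to 3, and CUST_31769_PI423492394 by 0.97, 0.10 and 2.58. CUST_10047_PI423492394 showed the opposite order, with 1.51, 1.5 and 0.10, and for it control replicate 3 was the high control.

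A slide left out of the choice gives a reading that this choice did not use, apart from the filter on background, which counted all 6 arrays. This reading was added after the data were seen. With the same rule applied to the 4 arrays of the other slides, 127 probes were chosen without slide 1, 144 without slide 2 and 226 without slide 3, of which 62, 68 and 67 are members. On the left-out slide the chosen probes were higher with HaWRKY10 for 95 of 127 (74.8%), 113 of 144 (78.5%) and 158 of 226 (69.9%). Over all tested probes these shares were 50.7%, 52.2% and 49.9%. The median difference of the chosen probes was 0.75, 0.81 and 0.32 log2 units on the left-out slide, against 1.24, 1.27 and 1.28 on the slides that chose them and 0.01, 0.02 and 0.00 for all tested probes. A difference of 1 or more was measured on the left-out slide for 40.2%, 40.3% and 21.2% of them, and for 1.85%, 1.61% and 1.83% of all tested probes. The 62, 68 and 67 members among the chosen probes were higher on the left-out slide by the member rule itself. Most chosen probes were thus higher there in part by construction, at a smaller size, and least on slide 3. The chosen sets overlap the members and the filter also read the left-out slide, so this is no independent support for the members. All tested probes are also an unequal yardstick. Their pooled SD within groups had a median of 0.192 log2 units, against 0.511 for the members. Each left-out slide is 1 pair of arrays, so no test was made.

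**Figure D5:**
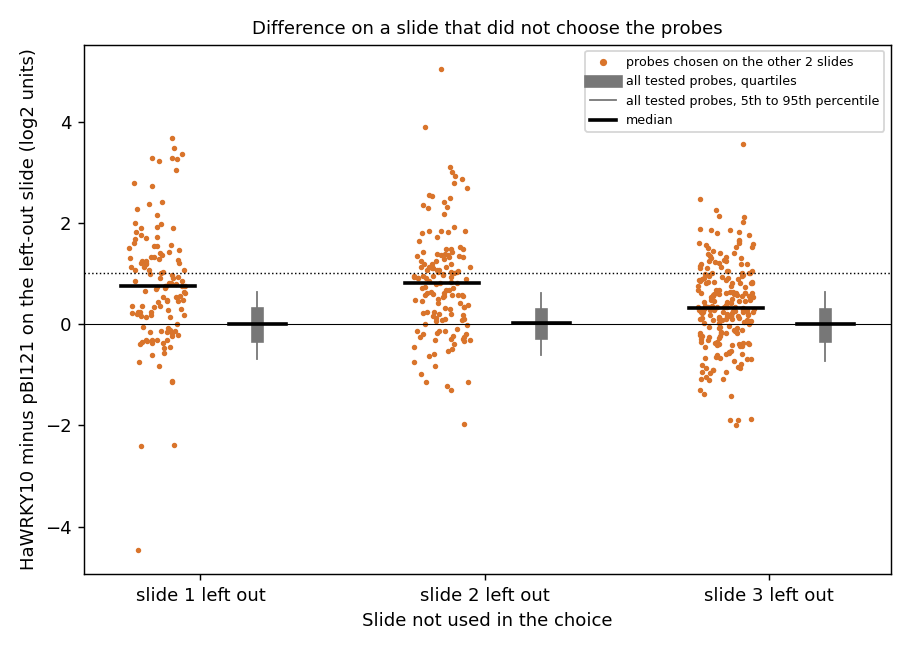
Difference HaWRKY10 minus pBI121 on 1 slide (log2 units) of probes chosen by the same rule on the 4 arrays of the other slides. Each orange point is a probe, black lines are medians (0.75, 0.81 and 0.32), and grey bars show the quartiles and the 5th to 95th percentiles of all tested probes on that slide. The chosen probes lie mostly above 0 on each left-out slide, and many lie below 1. The members among them lie above 0 by the rule.

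Leaving out an array removes 1 condition on overlap, so a larger set is expected by construction. Without control replicate 3 the rule would give 227 probes (1.06% of those tested) and without control replicate 2 it would give 125 (0.586%), of which 70 and 69 are among the 79. Leaving out any other array gave 0.502% to 0.553%. Across all tested probes, 2129 (9.98%) had non-overlapping groups with HaWRKY10 higher, whatever the size, and 150 had a difference of at least 1, so the members are the part where both hold. The fit across all tested probes with limma, a linear model with moderated variances, called 0 probes (0%) higher at an adjusted p under 0.05. At an unadjusted p under 0.05, 1214 of the 21326 tested probes were higher and 1398 lower. Since the members were chosen on this same contrast, nothing is read from their place in that fit.

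The members were spread over the array and its probe numbers. All had 1 spot, and none was among the probes spotted 10 times. The upper left, upper right, lower left and lower right of the array held 16, 19, 29 and 15 members, where each held 24.8% to 25.2% of the tested probes. Only 3 pairs of members lay within 4 rows and 2 columns of each other. The closest in profile of these were CUST_36991_PI423492394 and CUST_10657_PI423492394, at 0.342 log2 units. Probe numbers ran from 233 to 41010, and numbers up to 10000 held 34 members (43%), against 33.6% of the tested probes and 27.5% of the lowered ones. What order the numbers follow is not stated in the files.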

How the data were processed

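The 6 arrays, 3 per group, were compared. Per the file headers, the deposited intensity values come from Agilent Feature Extraction 11.5.1.1; the submitters' processing notes name version 9.1. The processed signal intensity is background-subtracted and detrended, per the file headers, with no scaling between arrays. How the authors normalised the deposited log2 table is not stated here; it was used as an alternative. Spot flags and spot errors are also the software's.

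Of 42326 spots, 40909 were no controls and belonged to 40243 probes, of which 40232 had an unflagged spot on all 6 arrays. Log2 processed signals were averaged per probe after dropping outlier spots, and the 75th percentile of each array was subtracted. Tested probes (21326) were well above background on at least 3 arrays. limma 3.58.1 in R 4.3.3 (two-sided, Benjamini-Hochberg over all tested probes, threshold 0.05) was checked on simulated data. The simulation drew independent noise for each array with no slide effect, so it does not cover arrays that share a slide. The number of probes meeting the rule is given per alternative as a percent of those tested. Alternatives were median scaling, quantile normalisation, normexp on median spot signals (offset 50), other filters and thresholds, the slide as a block and leaving out arrays. Other steps used Python 3.11.15. Replicates are called biological in the series' design text.

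Same-numbered arrays share a slide per the file headers, and their deviations from the group means correlated at 0.173, 0.249 and 0.232, against -0.225 to 0.0245 for other numbers, so the numbers count as pairing the arrays. The member rule, SDs and main limma fit are unpaired, and the slide block is an alternative. Members, their naming rule and the alternatives were chosen with earlier results of these data known. Named were the 10 members with the largest difference, the 10 with the widest gap, the 10 of highest level, the 5 with the smallest summed SD, those not well above background on all control arrays, and the 3 nearest the threshold on each side. Further members were named after their values were seen.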

Additional observations from a re-analysis of the deposited data

How the results depend on the processing

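The 79 members' median difference of 1.25 log2 units was 1.23 to 1.35 when 1 array was left out, 1.23 to 1.32 when a slide was left out and 0.83 to 1.34 under the other settings, lowest after normexp. The share of tested probes that met the rule, 0.37%, was 0.502% to 1.06% when 1 array was left out, which loosens the overlap condition, 0.127% (27 probes) after normexp and 0.393% (158 of the larger number tested) without the filter on dim probes. It was 0.596%, 0.675% and 1.06% without slides 1, 2 and 3, a choice made after seeing the data. With other thresholds it was 0.638% at a difference of 0.8, 0.23% at 1.2, 9.98% for no overlap alone, 0.703% for the difference alone and 0.577% when higher on all 3 slides (the replicate block). Of the 79 members, 27 met the rule again after normexp, 66 to 71 when 1 array was left out, 57 when all 6 arrays had to be well above background, 79 under median scaling and 77 under quantile normalisation. The raised share of raised and lowered probes was 31.6%, and 44.6% under median scaling, which shifted the median difference of all tested probes from 0.002 to 0.097. Probes higher past the limma adjusted threshold numbered 0, also with the replicate block, 17 after normexp, 3 with robust eBayes and a variance trend, and 0 to 7 when 1 array was left out (7 without control replicate 3). At an unadjusted p under 0.05 there were 1214 higher probes, 1556 with the replicate block, 2068 under median scaling and 701 (without HaWRKY10 replicate 1) to 1860 (without control replicate 3) when 1 array was left out. None of the 653 recomputed differences of named members changed sign, which the lack of overlap fixes for left-out arrays; 37 moved by over 1 SD, 29 of them after normexp. The offset lowers dim ratios by construction; otherwise the cause was not tested. Signal near background limits the 32 members with a level below -2, where the spot error had a median of 15.1% of the signal (10% at a level of 0 or above) and reached 99.8%.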
